A study of Homo sapiens with 16 samples.

Results

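The E2F transcription factors and the retinoblastoma pocket proteins were followed in 10 genes of 60649 in the count table: E2F1, E2F2, E2F3, E2F4, E2F5, E2F7, E2F8, RB1, RBL1 and RBL2. The genes were chosen by name, through the GENCODE symbol of each Ensembl identifier. That rule uses no measured value, but the list was drawn up with earlier results of these data known. All 10 passed the filter on low counts, which left 19103 genes to be tested. Their counts over the 16 libraries together ran from 1823 for E2F5 to 94152 for E2F4.

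Poly(A) RNA was sequenced from ASC52telo, a line of adipose-derived mesenchymal stem cells (MSCs) immortalized with telomerase, so every library came from 1 donor's line. The 4 groups had 4 biological replicates each. Young cells (MmC-/GDF11-) received neither agent, and young cells with GDF11 (MmC-/GDF11+) received growth differentiation factor 11 (GDF11) at 10 ng/mL over 10 days. Senescent cells (MmC+/GDF11-) were arrested with the DNA-crosslinking drug mitomycin C (MmC) at 1.5 µg/mL for 18 h and then cultured for 10 days, and senescent cells with GDF11 (MmC+/GDF11+) were given GDF11 at 10 ng/mL during those days. The labels give all 16 libraries the same run as their batch, the study names batch effects among its limits, and the labels do not state whether replicates with 1 number were grown together.

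E2F factors bind the promoters of genes needed for DNA replication and mitosis. E2F1, E2F2 and E2F3 activate them, E2F4 and E2F5 repress them together with a pocket protein, and the atypical members E2F7 and E2F8 repress them without a DP partner and without a pocket protein. The pocket proteins are RB1, RBL1 (p107) and RBL2 (p130): unphosphorylated RB1 holds the activators, and RBL1 or RBL2 joins E2F4 or E2F5 and the MuvB core in the DREAM complex of non-dividing cells. Cyclin-dependent kinases phosphorylate the pocket proteins and release E2F, CDK inhibitors prevent this, and in senescent cells the RB1 pathway is known for holding the arrest.

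Library totals lay between 71275337 and 144204979 counts. Values are counts relative to the TMM-scaled library size (CPM), and levels are compared between genes per kilobase of exon (RPKM). A gene is called where its adjusted p was under 0.05. The MSC surface markers NT5E, THY1, ENG, CD44 and ITGB1 were between 507 and 2717 CPM in every library. With MmC, NT5E and ITGB1 were called higher in both comparisons and CD44 with GDF11, and without replicate 1 CD44 was called higher and THY1 lower in both (THY1 -0.74, adjusted p = 6.62e-05, without GDF11). Markers of other cell types (PTPRC, CD34, CD14, PECAM1, CDH5, EPCAM, ACTA1, ADIPOQ) reached at most 19.7 CPM, and the summed level of the 5 that could be tested was 16.8 to 30.9 CPM in the MmC- libraries and 22.4 to 34.4 CPM in the MmC+ libraries. Of these 5, PECAM1 and CD14 were called higher and CDH5 lower with MmC in both comparisons, and CD34 in neither (-0.09 and 0.05). PTPRC was called higher with GDF11 (0.90, adjusted p = 0.00989) and not without it (0.63, adjusted p = 0.0600), where it was called once replicate 1 was left out (0.82, adjusted p = 0.0169). The part of other cell types in the results was not tested. EPCAM, ACTA1 and ADIPOQ had at most 5 counts in a library. Principal components were taken from the most variable of the tested genes alone. On the first, which held 86.5% of the variance of those genes, replicate 1 stood apart in both MmC+ groups. It lay at 22.4 and 21.8 while the other 6 MmC+ libraries lay between 41.8 and 50.3. On the second component (5.62%), replicate 1 stood apart in all 4 groups, at -7.97 and -6.64 in the MmC- groups beside 3.46 to 6.61 for their other 6 libraries, and at -24.8 and -26.4 in the MmC+ groups beside 4.52 to 7.87. Results for the 10 genes that rest on replicate 1 are therefore given with and without it, and pathway genes whose call changed without it are named or counted.

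**Figure D1:**
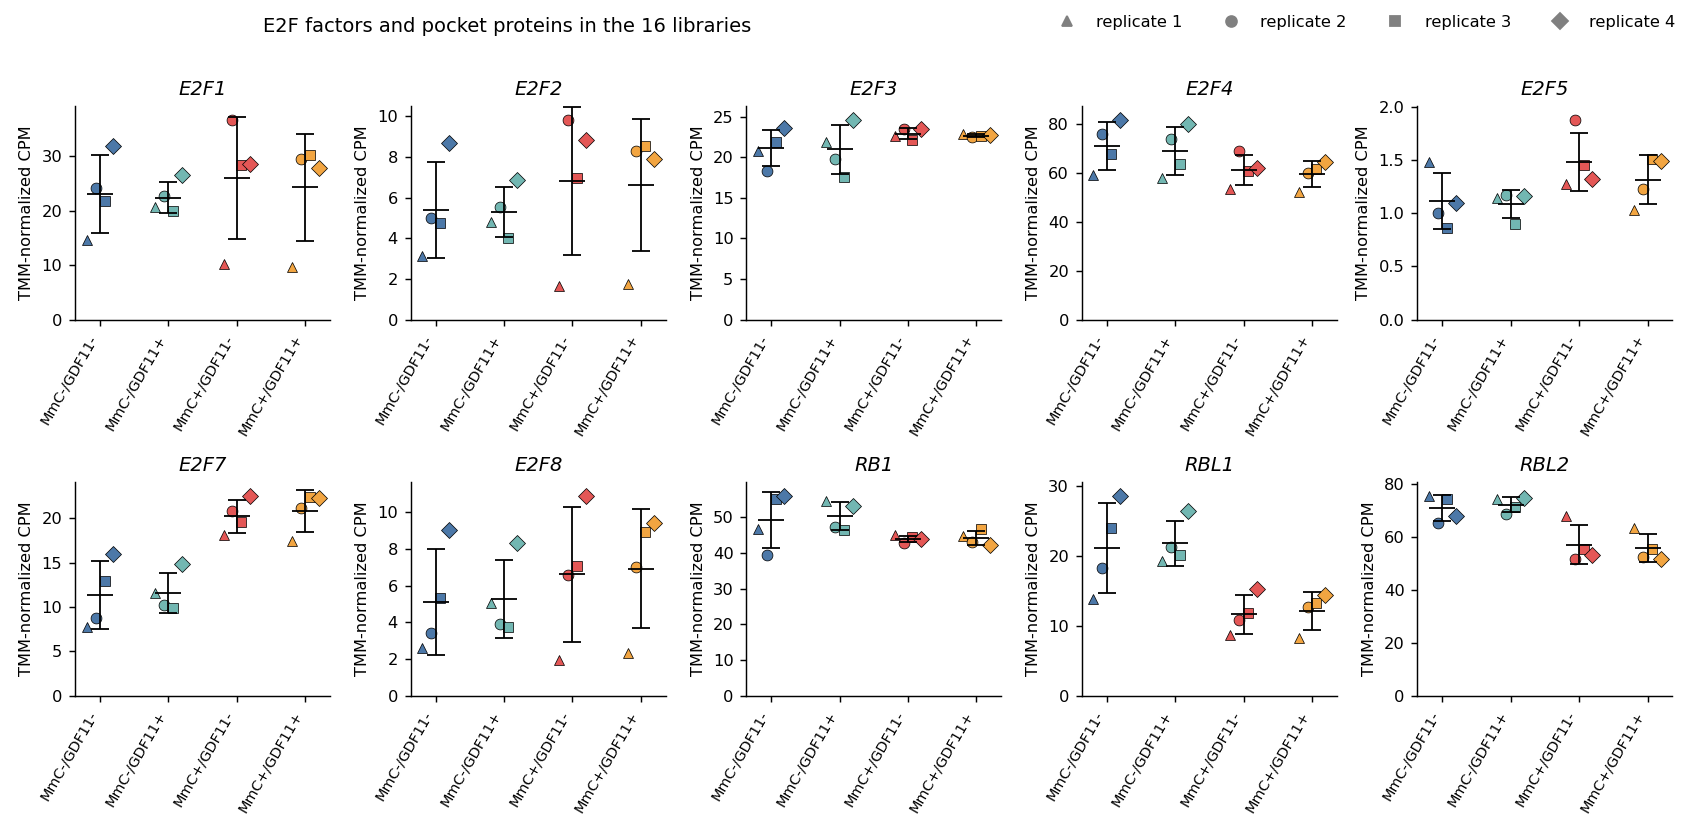
TMM-normalized CPM of the 10 genes (y axes, from 0) in the 4 treatment groups (x axes), with 1 marker per library, shaped by replicate number, and a bar for the mean ± SD of 4 libraries. E2F7 was higher in all 8 MmC+ libraries than in all 8 MmC- libraries. The triangle of replicate 1 lies lowest in each MmC+ group for 7 of the 10 genes, beside 35.2% and 36.9% of all genes tested. These are E2F1, E2F2, E2F4, E2F5, E2F7, E2F8 and RBL1.

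Per length, E2F4 was the most abundant of the 10 transcripts in all 4 groups, with a mean level of 19.8 ± 2.74 RPKM (SD, n = 4) in young and 17.0 ± 1.75 in senescent cells, and it did not overlap the next gene in any group. E2F1, RBL2 and RB1 followed, with median levels over the 16 libraries of 9.43, 8.22 and 7.10 RPKM, and neighbours among these 3 overlapped in every group. E2F3 had a median level of 4.34 RPKM, E2F7 2.66, RBL1 2.49, E2F8 1.44 and E2F2 1.14. E2F5 was the least abundant, at a median level of 0.200 RPKM. The order of E2F7 and RBL1 changed with MmC. E2F7 lay below RBL1 in young cells with GDF11 (1.85 ± 0.357 against 3.66 ± 0.531 RPKM, no overlap) and, with overlap, in young cells. It lay above RBL1 without overlap in senescent cells (3.22 ± 0.296 against 1.96 ± 0.464 RPKM) and in senescent cells with GDF11 (3.31 ± 0.373 against 2.04 ± 0.457 RPKM).

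The first comparison asked how these transcripts differed after MmC. With MmC and no GDF11, 3 of the 10 genes were called, against 45.3% of the 19103 genes tested. E2F7 rose (22.9% of genes were called higher), RBL1 and RBL2 fell (22.4% were called lower), and E2F1, E2F2, E2F3, E2F4, E2F5, E2F8 and RB1 were not called. With MmC in the presence of GDF11, the same 3 genes were called in the same directions, against 46.7% of genes tested (23.4% higher and 23.3% lower). The share of members called, 3 of 10, is below the background in both comparisons, a difference that was not tested. Without overlap between the groups were 1 of 10 members without GDF11 and 3 of 10 with it, beside 37.3% and 41.5% of genes. The median log2 fold change of the 10 genes was 0.14 without and 0.12 with GDF11, beside -0.01 over all genes tested in both comparisons. In these bulk samples a smaller share of cycling cells and less transcript per cell cannot be told apart.

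**Figure D2:**
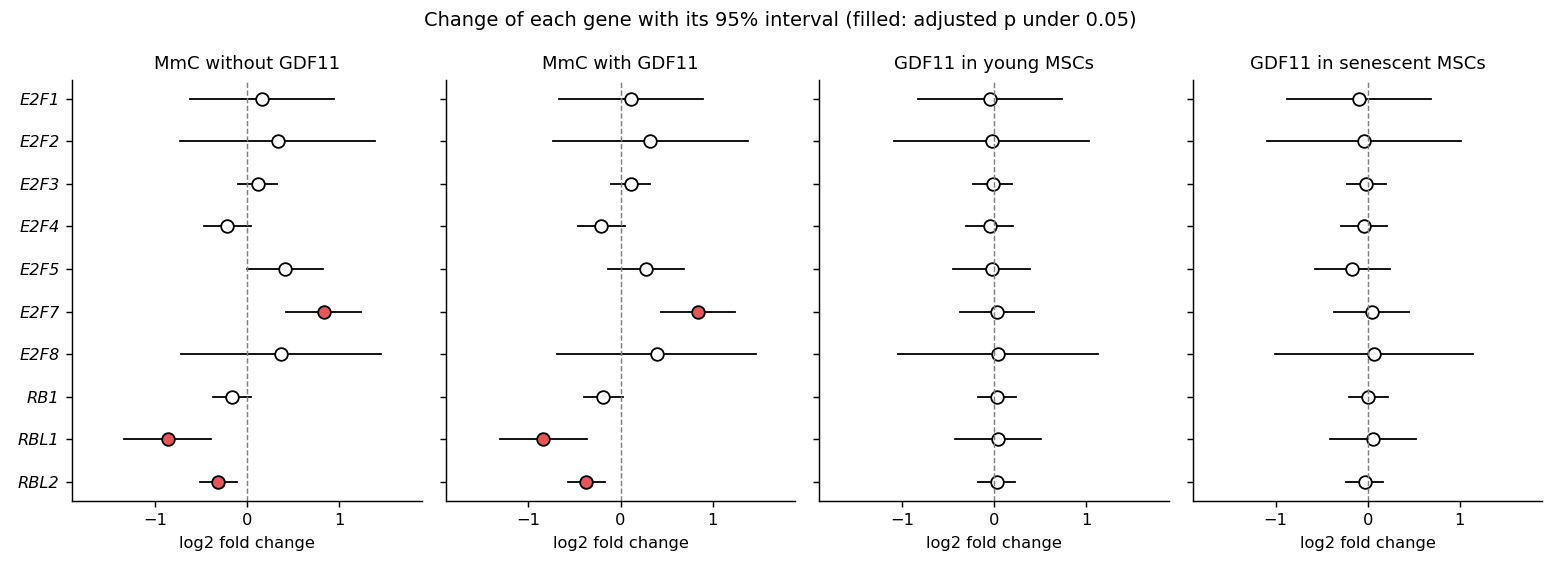
Log2 fold change of each gene (points) with its 95% interval (lines) in 4 comparisons, from the edgeR fit of all 16 libraries, with filled points where the adjusted p was under 0.05. E2F7 (0.83 and 0.84), RBL1 (-0.86 and -0.84) and RBL2 (-0.31 and -0.37) are filled under MmC, and no point is filled under GDF11.

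Among the activators, E2F1, which drives entry into S phase and is itself an E2F target, had rank 2 of the 10 genes in mean level per length in the MmC+ groups and rank 3, after RBL2, in the MmC- groups, and overlapped RBL2 in all 4. The gene lies on chromosome 20, from 33675477 to 33686385 on the minus strand of hg38. In replicates 1 to 4, its CPM was 14.6, 24.2, 21.8 and 32.0 in young cells and 10.2, 36.7, 28.4 and 28.6 in senescent cells. With GDF11 these were 20.6, 22.7, 20.003 and 26.5 in young cells and 9.59, 29.6, 30.3 and 27.8 in senescent cells. Replicate 1 was the lowest library of both MmC+ groups, below every MmC- library, and the groups overlapped. E2F1 had a log2 fold change with MmC of 0.16 (SE 0.367, 95% interval -0.62 to 0.95, edgeR adjusted p = 0.742) without GDF11 and 0.12 (95% interval -0.66 to 0.90, adjusted p = 0.816) with GDF11.

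E2F2, a close relative of E2F1 and also an activator, was measured at a lower level. It lies on chromosome 1, from 23506438 to 23531233 on the minus strand. Its CPM was 3.11, 5.01, 4.76 and 8.70 in replicates 1 to 4 of young cells and 1.66, 9.82, 6.97 and 8.84 in those of senescent cells. Under GDF11 it was 4.78, 5.54, 4.01 and 6.88 in young cells and 1.76, 8.28, 8.52 and 7.93 in senescent cells. Replicate 1 of the MmC+ groups again lay below every MmC- library. Its log2 fold change with MmC was 0.34 (95% interval -0.72 to 1.39, adjusted p = 0.612) without GDF11 and 0.32 (95% interval -0.74 to 1.38, adjusted p = 0.622) with it.

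The values of E2F1 and E2F2 depended on replicate 1. With it left out of every group, E2F1 was 25.99 ± 5.32 CPM (SD, n = 3) in young and 31.2 ± 4.73 in senescent cells, and 23.0 ± 3.26 and 29.2 ± 1.26 in the same cells with GDF11. Its log2 fold change was 0.26 (adjusted p = 0.148) without GDF11 and 0.35 (adjusted p = 0.0624) with GDF11 by edgeR. DESeq2 called the latter (0.36, adjusted p = 0.0464), an alternative chosen after the data were seen. E2F2 had a log2 fold change of 0.47 (adjusted p = 0.0992) without GDF11, and it was called higher with GDF11 (0.59, adjusted p = 0.0419). In both comparisons without replicate 1, 4 of the 10 genes were called, beside 51.7% and 52.6% of genes. These were E2F5, E2F7, RBL1 and RBL2 without GDF11 and E2F2, E2F7, RBL1 and RBL2 with it. What set replicate 1 apart was not tested.

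E2F3, the third activator, lies on chromosome 6, from 20401879 to 20493714 on the plus strand, and was not called. It ranged from 17.5 to 24.6 CPM in the 8 MmC- libraries and from 22.1 to 23.5 CPM in the 8 MmC+ libraries. The spread was narrower in the MmC+ groups, with an SD of 2.24 CPM in young and 0.675 CPM in senescent cells without GDF11 and of 2.99 and 0.167 CPM with it, a difference that was not tested. E2F3 had a log2 fold change of 0.12 (95% interval -0.10 to 0.33, adjusted p = 0.366) without GDF11 and 0.11 (95% interval -0.10 to 0.32, adjusted p = 0.375) with it. Counts per gene do not separate the E2F3a and E2F3b transcripts, which start from different promoters. Of the 31-base words in E2F3 exons, 20.4% occur elsewhere on the primary chromosomes, the most of the 10 genes. Its counts could therefore depend on how reads with several alignments were treated, which the sources used here do not state.

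Promoter stretches of the activators are shown because they hold letters that E2F factors bind, as does that of RBL1 further on. The 90 bases before the RefSeq start (GRCh38.p14) are printed 5′ to 3′ on the gene's own strand, with matches to TTTCCCGC, TTTCGCGC, TTTGCCGC or TTTGGCGC on either strand in capitals. They lie at chr20:33686386-33686475 (minus strand) for E2F1, chr1:23531234-23531323 (minus strand) for E2F2 and chr6:20401789-20401878 (plus strand) for E2F3.
E2F1: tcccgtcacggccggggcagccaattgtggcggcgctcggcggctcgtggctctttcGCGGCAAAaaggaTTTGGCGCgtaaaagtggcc
E2F2: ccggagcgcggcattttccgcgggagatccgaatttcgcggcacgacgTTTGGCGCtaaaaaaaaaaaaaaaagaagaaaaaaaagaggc
E2F3: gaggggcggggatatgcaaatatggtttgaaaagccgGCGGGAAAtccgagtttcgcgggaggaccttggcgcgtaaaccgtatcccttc

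E2F1 holds a match on each strand, with first bases 33 and 20 bases before the start, E2F2 holds 1 at 42 bases before it, and E2F3 holds 1 at 53 bases before it. Over windows of 300 bases (250 before the start and 50 after it), 4 of the 10 promoter entries of the members held a match, namely 1 each of E2F1, E2F2, E2F3 and RBL1. The same letters were in 3.31% of 35116 promoters. RefSeq promoters were matched for 8 of the 10 genes, and those of E2F5 and E2F8 were not analysed here. The entry of RB1 (window from 48476200), both of RBL2 and the second of E2F3 start inside the GENCODE gene, so the promoter at the 5′ end of RB1 was not analysed here either. A match in these windows is a description of the sequence and does not show that a factor binds there.

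Among the repressors that need a pocket protein, E2F4 was lower and E2F5 higher with MmC in at least 3 of 4 replicate numbers, and neither was called. E2F4, the E2F of the DREAM complex, lies on chromosome 16, from 67192155 to 67198918 on the plus strand. It was at 59.0, 75.8, 67.8 and 81.7 CPM in young and at 53.5, 68.8, 60.9 and 61.8 CPM in senescent cells. In the GDF11 arm it was at 58.1, 73.7, 63.6 and 80.0 CPM in young and at 52.1, 60.2, 61.7 and 64.5 CPM in senescent cells. The groups overlapped, and in each of the 4 replicate numbers the MmC+ library was below the MmC- library, in both arms. The share of all genes with such a pattern was not counted. In the GDF11 arm same-numbered libraries did not all deviate together (r 0.0293 to 0.311). E2F4 had a log2 fold change of -0.21 (SE 0.120, 95% interval -0.47 to 0.04, edgeR adjusted p = 0.156) without GDF11 and -0.21 (95% interval -0.46 to 0.05, adjusted p = 0.170) with it. With replicate number as a block, E2F4 was called lower without GDF11 (-0.21, adjusted p = 0.0125), in a fit that called 57.9% of genes. This was the 1 of 20 alternatives that called it, and the block fitted to only the 8 libraries compared did not (-0.19, adjusted p = 0.0864).

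E2F5, the other pocket-bound repressor, lies on chromosome 8, from 85177154 to 85217158 on the plus strand, and was counted at 66 or more reads in every library. Its CPM was 1.48, 1.00, 0.865 and 1.10 in young and 1.28, 1.88, 1.45 and 1.32 in senescent cells. With GDF11 added, it was 1.14, 1.17, 0.895 and 1.16 in young and 1.03, 1.23, 1.51 and 1.49 in senescent cells. The groups overlapped in replicate 1, whose MmC+ library was below its MmC- library in both arms. Its log2 fold change was 0.41 (95% interval 0.00 to 0.83, unadjusted p = 0.0491, edgeR adjusted p = 0.0934) without GDF11 and 0.27 (95% interval -0.14 to 0.69, adjusted p = 0.268) with it. Without replicate 1 the first of these was called (0.64, adjusted p = 0.0102), and so it was when MmC-/GDF11- replicate 1 alone was left out (0.59, adjusted p = 0.0210). Genes on the opposite strand cover 18.8% of E2F5 exons, so counts there could hold reads of those genes if the counting ignored strand.

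Of the atypical repressors, E2F7 rose and E2F8 was not called. E2F7, which represses E2F1 and other G1/S genes and is also known as a p53 target, lies on chromosome 12, from 77021248 to 77065569 on the minus strand. Its CPM was 7.77, 8.75, 12.9 and 16.0 in replicates 1 to 4 of young and 18.1, 20.8, 19.5 and 22.5 in those of senescent cells. In cells given GDF11, its CPM was 11.5, 10.2, 9.89 and 14.8 in young and 17.4, 21.2, 22.5 and 22.3 in senescent cells. Every MmC+ library was above every MmC- library in both arms, a pattern held in the higher direction by 19.1% of genes without and 20.2% with GDF11. The rise was 1.78-fold without GDF11 (log2 fold change 0.83, SE 0.192, 95% interval 0.43 to 1.24, edgeR adjusted p = 0.00234) and 1.79-fold with it (0.84, 95% interval 0.44 to 1.25, adjusted p = 0.00209). E2F7 was past the threshold in 20 of 20 alternative settings in each arm, with log2 fold changes of 0.70 to 1.05 without GDF11 and 0.78 to 0.99 with it. The alternatives varied the scaling, filter, tool, block and the libraries left out.

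E2F8, which pairs with E2F7 or with itself on DNA, differed widely between replicate numbers. It lies on chromosome 11, from 19224063 to 19241620 on the minus strand. It was at 2.62, 3.41, 5.35 and 9.05 CPM in young and at 1.93, 6.60, 7.08 and 10.9 CPM in senescent cells. Cells with GDF11 had 5.07, 3.92, 3.76 and 8.33 CPM when young and 2.31, 7.02, 8.92 and 9.43 CPM when senescent. Replicate 4 was the highest library of all 4 groups, and replicate 1 the lowest of both MmC+ groups. E2F8 had a log2 fold change of 0.37 (95% interval -0.71 to 1.45, adjusted p = 0.580) without GDF11 and 0.39 (95% interval -0.69 to 1.48, adjusted p = 0.552) with it, intervals wide enough to hold the change of E2F7. Without replicate 1 it was 0.46 (adjusted p = 0.334) and 0.66 (adjusted p = 0.164). Whether E2F7 and E2F8 changed differently was not tested.

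The promoter stretch of E2F7 is printed because E2F7 was the gene called higher. It lies at chr12:77065570-77065659 (minus strand) and has no capitals, since none of the 4 E2F spellings occur in it or in its window of 300 bases.
E2F7: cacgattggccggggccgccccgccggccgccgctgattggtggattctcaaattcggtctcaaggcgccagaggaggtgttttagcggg

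Of the pocket proteins, RBL1 and RBL2 fell with MmC and RB1 was not called. RB1, the retinoblastoma gene, lies on chromosome 13, from 48303744 to 48599436 on the plus strand. It was at 46.6, 39.4, 55.0 and 55.9 CPM in young and at 44.9, 42.9, 44.4 and 43.8 CPM in senescent cells. Its level with GDF11 was 54.4, 47.4, 46.4 and 53.1 CPM in young and 44.8, 43.1, 46.8 and 42.2 CPM in senescent cells. The senescent libraries lay inside the range of the young ones without GDF11, and with GDF11 only replicate 3 reached into that range. RB1 had a log2 fold change of -0.16 (SE 0.0994, 95% interval -0.37 to 0.05, adjusted p = 0.197) without GDF11 and -0.19 (95% interval -0.40 to 0.02, adjusted p = 0.136) with it. Without MmC-/GDF11- replicate 2, its lowest library there, RB1 was called lower (-0.25, adjusted p = 0.0287).

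RBL1, or p107, is the pocket protein of cycling cells and is itself transcribed under E2F control. It lies on chromosome 20, from 36996349 to 37095997 on the minus strand. Its CPM was 13.9, 18.2, 24.0 and 28.6 in young and 8.68, 10.8, 11.8 and 15.3 in senescent cells. In the GDF11 arm there were 19.3, 21.3, 20.1 and 26.4 CPM in young and 8.20, 12.8, 13.3 and 14.4 CPM in senescent cells. Without GDF11, replicate 1 of the young cells lay below replicate 4 of the senescent cells and no other pair overlapped, and with GDF11 the groups did not overlap, as for 21.2% of genes in the lower direction. RBL1 fell to 0.551 of its level in the matching young cells without GDF11 (log2 fold change -0.86, SE 0.223, 95% interval -1.33 to -0.39, edgeR adjusted p = 0.00526) and to 0.559 with it (-0.84, 95% interval -1.31 to -0.37, adjusted p = 0.00585). The fall held in 20 of 20 alternatives in each arm, between -1.01 and -0.67 without GDF11 and between -0.91 and -0.68 with it.

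RBL2, or p130, is the pocket protein of resting and senescent cells and the usual pocket protein of DREAM. It lies on chromosome 16, from 53433977 to 53491648 on the plus strand. It had 75.5, 65.5, 74.5 and 68.1 CPM in young and 67.8, 51.8, 55.7 and 53.3 CPM in senescent cells. Cells with GDF11 had 74.4, 68.9, 71.3 and 74.8 CPM when young and 63.5, 52.6, 55.6 and 51.8 CPM when senescent. Replicate 1 was the highest MmC+ library in both arms, and it alone overlapped the MmC- range, without GDF11. RBL2 fell to 0.806 of its level in young cells without GDF11 (log2 fold change -0.31, SE 0.0942, 95% interval -0.51 to -0.11, edgeR adjusted p = 0.0134) and to 0.773 with it (-0.37, 95% interval -0.57 to -0.17, adjusted p = 0.00429). Without GDF11 the call was lost when only the 8 libraries compared were fitted (adjusted p = 0.0561) and when MmC+/GDF11- replicate 2 was left out (-0.26, adjusted p = 0.0523). Genes on the opposite strand, AKTIP among them, cover 16.4% of RBL2 exons.

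The stretch of RBL1, the gene with the largest fall of the 10, lies at chr20:37095998-37096087 (minus strand) and is printed with the same capitals. It holds matches with first bases 26 and 16 bases before the start, both on the gene's own strand. RBL2, which also fell, holds none in its 2 windows of 300 bases, both of which start inside the gene.
RBL1: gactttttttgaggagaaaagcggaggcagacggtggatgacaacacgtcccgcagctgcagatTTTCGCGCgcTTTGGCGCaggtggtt

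**Figure D3:**
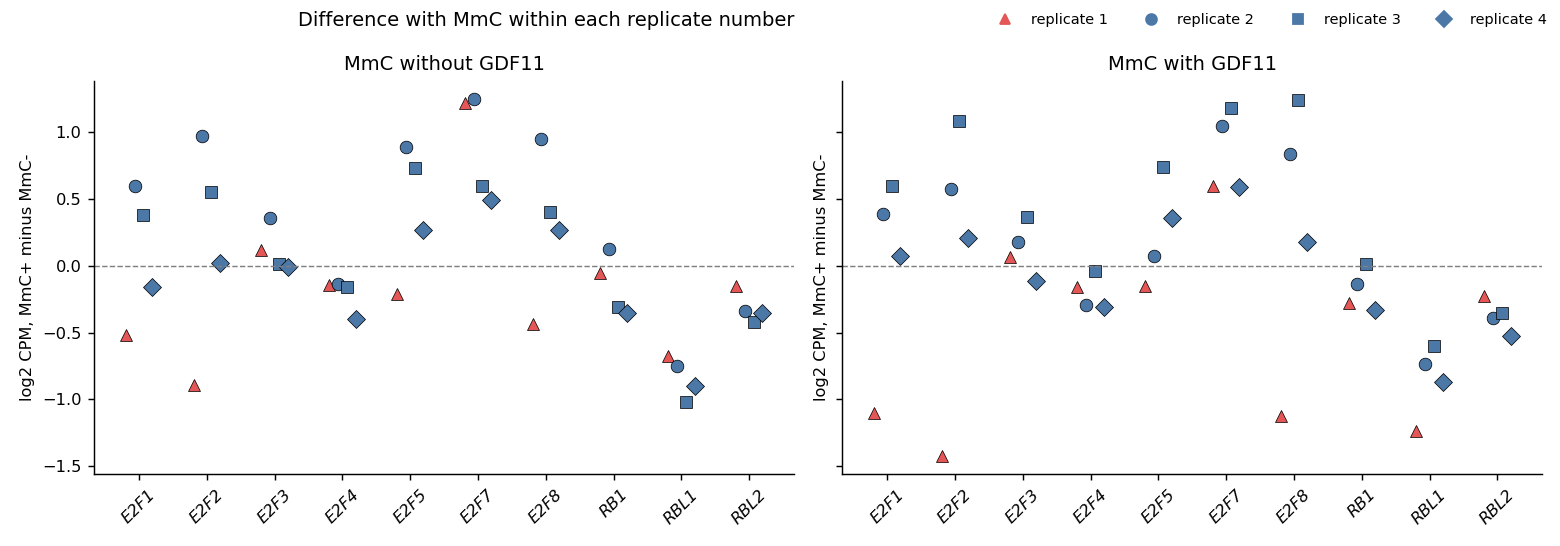
Difference in log2 CPM between the MmC+ and the MmC- library of the same replicate number (y axis) for each gene (x axis), without GDF11 (left) and with GDF11 (right), replicate 1 in red triangles and the others in blue. E2F7 was above 0 and E2F4, RBL1 and RBL2 below 0 in 4 of 4 numbers in both panels, and replicate 1 was below 0 for E2F1, E2F2, E2F5 and E2F8. The share of all genes with the same sign in 4 of 4 numbers was not counted.

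Within a replicate number, the difference with MmC was between 0.49 and 1.25 for E2F7, between -1.02 and -0.68 for RBL1 and between -0.42 and -0.15 for RBL2 on the log2 CPM scale without GDF11. For E2F2 it ran from -0.89 in replicate 1 to 0.97 without GDF11 and from -1.43 in replicate 1 to 1.08 with GDF11. Replicate 1 was the one number with a lower MmC+ library for E2F2, E2F5 and E2F8 in both arms and for E2F1 with GDF11, while for E2F1 without GDF11 replicate 4 was lower as well.

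The activators and repressors were also set against each other as shares of the summed RPKM of the 7 E2F genes, as a description with no test. Activators made up 37.0% ± 1.86 (SD, n = 4) in young cells, 37.3% ± 1.60 in young cells with GDF11, 40.1% ± 5.97 in senescent cells and 39.4% ± 5.44 in senescent cells with GDF11. E2F4 and E2F5 together made up 54.9% ± 3.83, 54.0% ± 2.76, 47.1% ± 6.10 and 47.0% ± 5.96 in that order of groups. The shares of E2F7 and E2F8 were 8.09% ± 2.14, 8.65% ± 1.49, 12.9% ± 1.80 and 13.6% ± 0.887, higher by more than either SD in both MmC+ groups than in the MmC- groups. Without replicate 1 the activator share was 42.9% and 42.1% in the MmC+ groups beside 37.7% and 36.6% in the MmC- groups. The summed level of the 3 pocket proteins was 19.9 ± 2.27 and 20.4 ± 1.22 RPKM in the MmC- groups and 15.8 ± 0.793 and 15.8 ± 0.544 RPKM in the MmC+ groups.

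**Figure D4:**
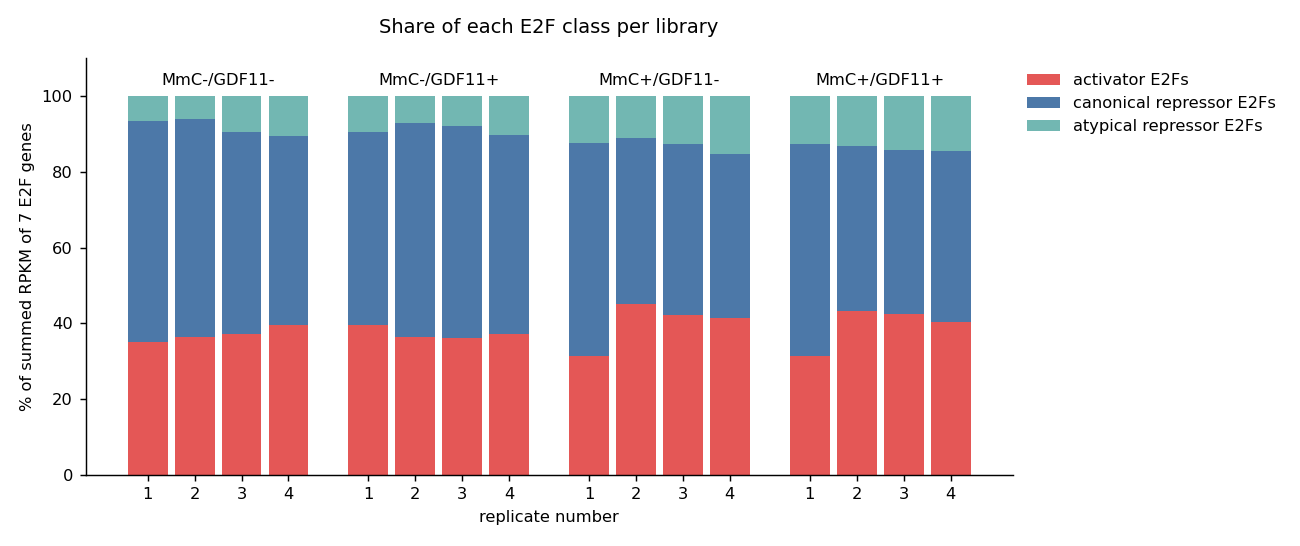
Share of the summed RPKM of 7 E2F genes (y axis, percent) held by the activators (E2F1, E2F2 and E2F3), the canonical repressors (E2F4 and E2F5) and the atypical repressors (E2F7 and E2F8), in a bar for each of the 16 libraries, grouped by treatment. The top segment, E2F7 and E2F8, averages 8.09% and 8.65% in the MmC- groups and 12.9% and 13.6% in the MmC+ groups, and replicate 1 of both MmC+ groups has the smallest activator segment.

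The next question was whether GDF11 moved these genes. None of the 10 was called, and in young cells the log2 fold changes lay between -0.05 and 0.04, and in senescent cells between -0.17 (E2F5) and 0.07 (E2F8), each with an edgeR adjusted p of 1.00. The background was 0% of genes called in both comparisons. At an unadjusted p under 0.05 stood 0 of the 10 members, beside 1.18% of genes in young and 0.503% in senescent cells. limma-voom and DESeq2 also called 0 members. E2F4 was lower with GDF11 in 4 of 4 replicate numbers of young cells, with log2 CPM differences of -0.09 to -0.02. No other member kept the same sign in all numbers, in young or in senescent cells. In young cells same-numbered libraries did not all pass the cut-off for deviating together (r above 0.1). Number 3 fell just below it (0.0982), and the others had 0.264 to 0.504. The share of all genes with the same sign in all numbers was not counted. The 95% interval in senescent cells, from the fit without a replicate block, was narrow for RBL2 (-0.23 to 0.17), RB1 (-0.20 to 0.22) and E2F3 (-0.23 to 0.20). For E2F7 it was -0.36 to 0.45 and for RBL1 -0.41 to 0.53. It was wide for E2F8 (-1.01 to 1.15) and E2F2 (-1.09 to 1.02), and holds a change of 2-fold either way for both. Same-numbered libraries deviated together in senescent cells, and this interval ignores it. Within a number of senescent cells, the log2 CPM difference lay between -0.21 and 0.33 for E2F8 and between -0.25 and 0.29 for E2F2. In young cells the 95% interval of the same fit was -0.17 to 0.23 for RBL2 and -0.83 to 0.74 for E2F1. For E2F8 (-1.04 to 1.13) and E2F2 (-1.09 to 1.04) it again holds a change of 2-fold either way. Within a number of young cells, the E2F8 difference ran from -0.51 to 0.94.

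The interaction asks whether the response to MmC differed with GDF11. It was called for 0 of the 10 genes and for 0% of genes tested, with 0 members and 0.9% of genes at an unadjusted p under 0.05. The estimate was 0.01 (95% interval -0.56 to 0.58) for E2F7, 0.02 (-0.64 to 0.68) for RBL1 and -0.06 (-0.34 to 0.22) for RBL2, on the log2 scale. E2F5 had the largest estimate in size, -0.14 (-0.72 to 0.44). The interval was wider for E2F1 (-1.15 to 1.06), E2F2 (-1.51 to 1.49) and E2F8 (-1.51 to 1.55). The MmC comparisons with and without GDF11 use separate libraries, and each gene's values above stand side by side for them.

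The other genes of the pathway were read in lists by role, with MmC without GDF11 unless stated. Of the partners that E2F needs to bind DNA, TFDP1 (DP1) fell with MmC, from 162 ± 26.1 CPM (SD, n = 4) in young to 106 ± 5.66 CPM in senescent cells (log2 fold change -0.60, adjusted p = 0.000291). TFDP2 (-0.19, adjusted p = 0.105) and E2F6, a repressor of the Polycomb type (0.28, adjusted p = 0.104), were not called, and TFDP3 was too low to test. Without replicate 1 both were called in those directions, TFDP2 at -0.22 (adjusted p = 0.0403) and E2F6 at 0.31 (adjusted p = 0.0113), and E2F6 was called with GDF11 as well (0.28, adjusted p = 0.0173).

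Of the 8 genes for the MuvB core and its partners, 3 fell and 0 rose, beside 22.4% of all genes called lower and 22.9% called higher, with a median log2 fold change of -0.14. FOXM1, which joins MuvB at G2/M promoters, was 156 ± 49.6 CPM in young and 45.4 ± 16.9 CPM in senescent cells (log2 fold change -1.78, edgeR adjusted p = 0.000622). MYBL2, the B-Myb that replaces the pocket protein on MuvB, was 29.2 ± 7.42 and 12.9 ± 5.46 CPM (-1.18, adjusted p = 0.0137). LIN9 of the core fell by 1.05 on the log2 scale (adjusted p = 0.000317), while the core genes LIN37 (-0.00), LIN52 (0.25), LIN54 (0.37) and RBBP4 (-0.29) and the kinase DYRK1A (0.15), which drives DREAM assembly, were not called. With GDF11 the same 3 fell and DYRK1A rose (0.23, adjusted p = 0.0284). Without replicate 1, RBBP4 fell as well and LIN52 and DYRK1A rose in the comparison without GDF11, and LIN52 and LIN54 rose in the one with it.

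Of 8 genes for the kinases and cyclins that phosphorylate pocket proteins, 2 rose and 1 fell in each comparison, beside 22.9% and 23.4% of all genes called higher and 22.4% and 23.3% called lower. CCND1, cyclin D1, rose from 300.4 ± 19.7 to 1248 ± 250.3 CPM (log2 fold change 2.06, edgeR adjusted p = 1.09e-07), and CCND2 from 0.841 ± 0.585 to 4.74 ± 2.07 CPM (2.51, adjusted p = 0.000919). CDK4, the kinase that cyclin D activates, fell by 0.73 on the log2 scale (adjusted p = 8.19e-05). CCND3 (-0.04), CDK6 (0.27), CCNE1 (0.23), CCNE2 (-0.51) and CDK2 (0.16) were not called. CCNE1 and CCNE2 encode the E cyclins, which are E2F targets, and CDK2 is the kinase they join. CDK2 was lowest in replicate 1 of both MmC+ groups (17.8 and 17.5 CPM, beside 56.5 to 62.6 CPM in the other 6) and was called higher with GDF11 once replicate 1 was left out (0.38, adjusted p = 0.0138).

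Of 6 CDK inhibitor genes tested, 2 rose, 3 fell and 1 was not called, beside 45.3% of all genes called. CDKN1A, the p53 target p21, rose from 226 ± 70.6 to 1507 ± 395 CPM (log2 fold change 2.74, adjusted p = 3.89e-06), and CDKN2B, p15, rose by 0.85 on that scale (adjusted p = 0.000160). CDKN2C, p18, fell by 2.05 (adjusted p = 1.12e-09), CDKN1B, p27, fell by 0.58 (adjusted p = 6.06e-05) and CDKN2D, p19, fell by 0.37 (adjusted p = 0.0266). CDKN2A, which encodes p16 and ARF, was at 0.905 ± 0.224 CPM in young and 1.06 ± 0.294 CPM in senescent cells (0.23, adjusted p = 0.516), and CDKN1C was too low to test. In the GDF11 arm the CDKN2D difference was -0.30 (adjusted p = 0.0630), and it was called there without replicate 1 (-0.30, adjusted p = 0.0271).

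Of 8 chromatin enzymes that pocket proteins recruit, 5 fell and 0 rose in each comparison, beside 22.4% and 23.3% of all genes called lower, with a median of -0.32 without GDF11. SUV39H1, a histone methyltransferase, had a log2 fold change of -0.94 (adjusted p = 0.00696), DNMT1, which maintains DNA methylation, -0.82 (adjusted p = 0.00283), HDAC1, a histone deacetylase, -0.51 (adjusted p = 7.72e-05), and the SWI/SNF ATPases SMARCA2 and SMARCA4 -0.33 and -0.30 (adjusted p = 0.00372 and 0.0235). HDAC2 (-0.23), KDM5A (0.06) and ARID4A (0.02) were not called. Without replicate 1, HDAC2 was called lower in both comparisons (-0.22, adjusted p = 0.0219, and -0.19, adjusted p = 0.0434).

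Of 6 genes for ubiquitin ligases of the cell cycle and their regulators, 5 fell and 0 rose, beside 22.4% of all genes called lower, with a median of -1.26. CDC20, an activator of the anaphase-promoting complex, fell by 2.81 on the log2 scale (adjusted p = 5.28e-05), CCNF, cyclin F, by 2.06 (adjusted p = 1.10e-06) and SKP2, which targets p27, by 1.53 (adjusted p = 0.00118). FBXO5 fell by 0.99 (adjusted p = 0.00427) and FZR1 by 0.28 (adjusted p = 0.0302). CKS1B, a cofactor of SKP2, was at -0.66 (adjusted p = 0.0542) without GDF11 and was called lower with it (-0.72, adjusted p = 0.0375), and without GDF11 it was called once replicate 1 was left out (-0.63, adjusted p = 5.16e-05).

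**Figure D5:**
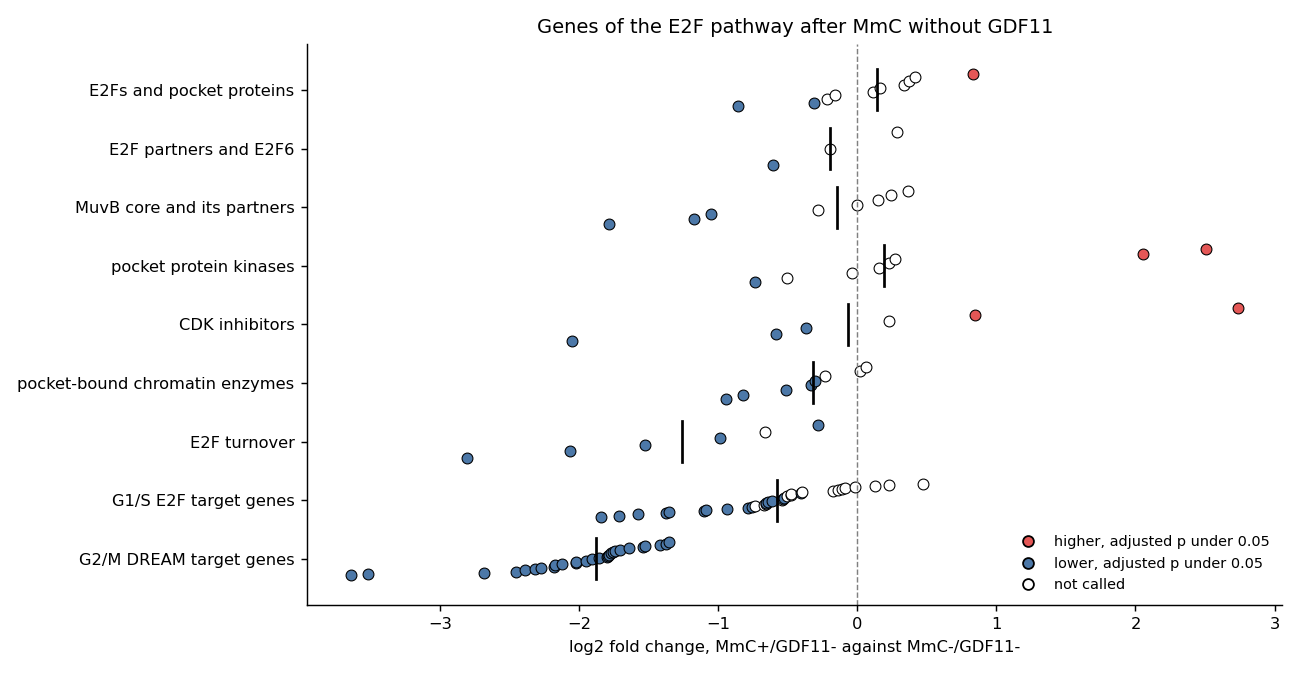
Log2 fold change with MmC without GDF11 (x axis) of each tested gene (points) in 9 lists of the pathway (y axis), red where called higher, blue where called lower and white where not called, with a bar at the median of each list. The 28 G2/M genes are all blue around a median of -1.88, while the G1/S genes spread from -1.84 to 0.48 and the E2F and pocket protein genes from -0.86 to 0.83.

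Target genes of the pathway were read in a pair of lists. Of 32 G1/S genes activated by E2F, 16 fell and 0 rose with MmC without GDF11, and 15 fell and 0 rose with GDF11, against 22.4% and 23.3% of all genes called lower. Their median log2 fold change was -0.58 and -0.59, beside -0.01 over all genes tested. GINS2, of the replicative helicase, had -1.84 (adjusted p = 3.95e-05) and TK1, thymidine kinase, -1.72 (adjusted p = 0.00147), the lowest of those called. MSH6, of mismatch repair, had -0.40 (adjusted p = 0.00402) and CHEK1, a checkpoint kinase, -0.53 (adjusted p = 0.00602), the highest of those called. Genes of the list at about the young level, named after their values were seen, were the replication clamp PCNA (-0.02, adjusted p = 0.923), the replication licensing gene CDC6 (-0.11, adjusted p = 0.842) and RRM2 of ribonucleotide reductase (0.13, adjusted p = 0.833).

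The G1/S list also moved with replicate 1, which was the lowest library for 28 of the 32 genes in both MmC+ groups (87.5%, against 35.2% and 36.9% of all genes tested). In young cells replicate 1 was the lowest for 31 of the 32 (96.9%, against 32% of all genes), and in young cells with GDF11 for 12 (37.5%, against 29.5%). Without replicate 1, 22 of 32 fell without GDF11 and 20 with GDF11, beside 4945 and 5066 of 19338 genes called lower. The phosphatase gene CDC25A then rose (0.53, edgeR adjusted p = 0.0186, and 0.68, adjusted p = 0.00418), as did RRM2 with GDF11 (0.44, adjusted p = 0.00599). PCNA, still not called, was then at -0.21 (adjusted p = 0.0869) without GDF11 and -0.10 (adjusted p = 0.416) with it. Summed over the 32 genes, the senescent libraries held 793 CPM in replicate 1 and 1251 to 1388 CPM in the others, and the young libraries held 1169 CPM in replicate 1 and 1818 to 2339 CPM in the others.

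Of 28 G2/M genes under DREAM control, 28 fell in both comparisons, and for each of them the groups did not overlap, as for 18.2% of all genes without and 21.2% with GDF11 in the lower direction. The median log2 fold change was -1.88 in both. PLK1, the mitotic kinase, fell by 3.64 (adjusted p = 4.39e-07) and KIF20A, a kinesin of cytokinesis, by 3.52 (adjusted p = 4.92e-07), while the kinetochore gene CENPF (-1.36, adjusted p = 0.00608) and the spindle gene TPX2 (-1.37, adjusted p = 0.00292) fell least. Their summed level was 262 CPM in replicate 1 and 578 to 593 CPM in the other senescent libraries, below all young libraries at 1171 to 2443 CPM. Replicate 1 was the lowest library for 28 of the 28 in young cells and in both MmC+ groups. Without replicate 1 again 28 of 28 fell in both comparisons, beside 4945 of 19338 genes called lower without GDF11 and 5066 with it.

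Promoters of these lists differ in the letters they hold. The E2F letters were in 18 of 43 promoters of G1/S genes (41.9%) and in 3 of 31 of G2/M genes (9.68%). The CHR letters TTTGAA, read by MuvB, were in 2 of 43 (4.65%) and 17 of 31 (54.8%), beside 15.2% of all promoters. Among the members, E2F3 holds TTTGAA 65 bases before its start, visible in its stretch in lower case, and RBL2 holds it 24 bases after a RefSeq start inside the gene. Neither overlaps an E2F match.

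Some members varied together between libraries. Over the 16 libraries, Pearson's r of log2 CPM was 0.99 between E2F1 and E2F2 (Spearman 0.97), and 0.92 after group means were removed and replicate 1 left out (12 libraries). E2F1 and E2F8 gave 0.88 over 16 libraries and 0.49 in the latter reading. E2F1 and RBL2 gave -0.88 within groups and -0.21 without replicate 1, so this relation rests on replicate 1. RB1 and RBL2 gave 0.64 over the 16 libraries, 0.36 within groups and 0.70 within groups without replicate 1, so this value too depends on replicate 1. E2F7 and RBL1, called in opposite directions with MmC, gave -0.44 over the 16 libraries, 0.87 within groups and 0.88 within groups without replicate 1. In that last reading E2F8 and RBL1 (0.95), E2F7 and E2F8 (0.94) and E2F3 and E2F7 (0.94) were closer than E2F1 and E2F2. The other pairs are not given. The libraries share treatment groups and scaling, and no test was made.

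The genes whose levels followed a member most closely, among 10962 protein-coding genes with a mean log2 CPM of at least 1, are given for 1 activator, 1 repressor and 1 pocket protein. For E2F1 they were CDK2 (r = 0.99), RRM2 (0.98) and GART, of purine synthesis (0.97), over 16 libraries, and 0.93, 0.90 and 0.83 without replicate 1. For E2F7 they were TRAPPC10 (0.98), C2CD3 (0.97) and LEMD3 (0.97), and for RB1 they were HLTF, APAF1 and VPS54 (each 0.93). Without replicate 1 the 3 of E2F7 gave 0.98, 0.99 and 0.98 and the 3 of RB1 gave 0.94, 0.98 and 0.95.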

How the data were processed

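Gene counts were deposited by the authors as 1 table for the 16 libraries. Per the authors, reads of a directional poly(A) kit were aligned to hg38 with HISAT2 2.2.1 and counted per Ensembl gene on GENCODE with featureCounts 2.0.1. The strand, pair and multiple-alignment settings of the counting are not given in the sources used here. The counts of E2F3, E2F5 and RBL2 could depend on them, which was not tested.

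From the deposited counts, 19103 of 60649 genes passed the expression filter of edgeR (minimum count 10, minimum total 15), and 60507 had a GENCODE symbol. Libraries were scaled by TMM and compared with the quasi-likelihood test of edgeR 4.0.16 (R 4.3.3, robust, group means over all 16 libraries), with Benjamini-Hochberg adjustment across all genes tested at 0.05. CPM and RPKM use TMM-scaled library sizes, RPKM also the union exon length of a later GENCODE release, and log2 CPM a prior count of 2. The script was tested on simulated counts, where it recovered 25.4% of genes changed 1.41-fold, 85.1% of those changed 2-fold and 97.0% of those changed 4-fold in the comparison of MmC without GDF11 (19103 genes). In that simulation 67, 67 and 66 genes were changed, far fewer than the 8655 called in the data. The adjustment for multiple tests was therefore stricter there, and these shares are not the power of the comparison itself. At the library totals of 71275337 to 144204979, no member had fewer than 66 counts in a library.

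The 10 members and the pathway lists were chosen with earlier results of these data known, so no pattern here is independent of them. Named were all members, all genes of lists with 8 genes or fewer, the called genes with the 2 lowest and the 2 highest log2 fold changes of longer lists, and the 3 genes most like E2F1, E2F7 and RB1. Same-numbered libraries deviated together (r over genes above 0.1 for every number) for MmC without GDF11 (0.113 to 0.368) and for GDF11 in senescent cells (0.448 to 0.818), by the data and not by a label, although for MmC without GDF11 replicate 3 correlated better with number 4 (0.151) than with its own (0.113). Alternatives were other scaling and filters, limma-voom (limma 3.58.1), DESeq2 1.42.0, fits of only the libraries compared, a replicate block and each library left out. 1 further marker gene, beside the 8 named for other cell types, is not reported here.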

Additional observations from a re-analysis of the deposited data

Results flagged for a closer look

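Of 52 groups of 4 values tested for a value far from the others (Dixon's gap over range, at the 95% level), 5 held one, and 4 of those were replicate 1. Chance gives about 1 in 20 such groups. E2F1 in senescent cells with GDF11 was 9.59 CPM in replicate 1, beside 27.8 to 30.3 CPM in the other 3 libraries. E2F2 in the same library was 1.76 CPM, beside 7.93 to 8.52 CPM. E2F5 in young cells with GDF11 was 0.895 CPM in replicate 3, beside 1.14 to 1.17 CPM. The share of E2F4 and E2F5 in the summed RPKM of the 7 E2F genes was 56.1% in replicate 1 of senescent cells, beside 43.1% to 45.1%. In replicate 1 of senescent cells with GDF11 it was 55.8%, beside 43.2% to 45.2%.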

How the results depend on the processing

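E2F7 and RBL1 were past the threshold in the same direction in 20 of 20 alternatives in each MmC comparison, and RBL2 in 18 of 20 without GDF11 and 20 of 20 with it. The E2F1 log2 fold change turned to -0.039 without GDF11 when MmC+/GDF11- replicate 2 was left out (-0.039 to 0.44 over the libraries left out) and to -0.024 with GDF11 under the replicate block, neither called; the cause was not tested. With GDF11, 5 members were called by DESeq2 without replicate 1, a setting chosen after the data were seen that called 52.9% of genes. Under the replicate block, 24 G1/S genes fell with GDF11 in place of 15, beside 5672 of 19103 genes called lower. E2F4 was called there (-0.20, adjusted p = 0.0154), and 59% of genes were called in either direction. Same-numbered libraries did not all deviate together there (r 0.0293 to 0.311), nor for GDF11 in young cells (0.0982 to 0.504), so those values stand only here. Without GDF11, the block added the E2F4 call and changed no other member's call. There 21 G1/S genes fell in place of 16, beside 5560 of 19103 genes called lower. In the block fitted to only the libraries compared, E2F4 was not called in either arm (adjusted p = 0.0864 and 0.0839). The share of E2F7 and E2F8 was 11.6%, 12.4%, 18.5% and 19.4% in the 4 groups, in the order given above, when plain CPM replaced RPKM. The SE did not follow depth among the members: for MmC without GDF11 it was 0.194 for E2F5, which had the fewest counts, and 0.367 for E2F1.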
